A study of Homo sapiens and Mus musculus with 20 samples.

Results

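Satb1 sites beside human centromeres were taken from the autosomal part of the full-length Satb1 peak list of MCF10A cells. A peak was counted as a member when its midpoint lay within 5 Mb of the centromere gap of its chromosome in hg19, the build of the peak files. No table of centromere gaps was at hand, so the longest run of undetermined bases (N) on each chromosome stood for the gap, and on the acrocentric chromosomes 13, 14, 15, 21 and 22 only the side towards the long arm was used. This gave 1684 members of 21949 autosomal peaks and of 22877 peaks in the whole list, on 39 chromosome sides. The other 20265 autosomal peaks are called the rest below, and they include 1359 peaks between 5 and 10 Mb from a gap and 808 peaks within 5 Mb of a chromosome end.

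MCF10A is a mammary epithelial cell line that makes no native Satb1. Full-length Satb1, Satb1 without its homeodomain (dHD), and the N-terminal part with the first CUT domain (N-C1) were expressed from cumate-inducible lentiviral vectors as fusions to eGFP, and the chromatin was precipitated with a GFP antibody. Cells with full-length Satb1 were also kept for 2 h with camptothecin, which traps topoisomerase I on DNA, or with ICRF-193, an inhibitor of topoisomerase II. ATAC-seq, which marks open chromatin by transposase insertion, was carried out in native MCF10A cells and in Satb1-expressing MCF10A cells. Each of these 7 conditions is present as 1 peak list, the methods give a range of reads per ChIP-seq library but not the depth of each list, and the pooling of replicates is not given in the sources used here, so no replicate error and no p-value can be given. Intervals in the text are exact 95% intervals (Clopper-Pearson for shares, Poisson for densities) that cover counting error only. Copies of one sequence and neighbouring peaks are not independent, which makes these intervals too narrow.

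Centromeres assemble on long tandem arrays of alpha satellite, a repeat of about one nucleosome's length, some units of which carry the box bound by CENP-B. The flanks of the arrays hold broken satellite, recent segmental duplications and members of multicopy gene families, and they are mostly heterochromatic. The arrays themselves are undetermined in hg19, so the members lie in the flanks and not in the centromere. Satb1 binds A/T-rich DNA through its CUT1 and CUT2 domains and its homeodomain, and organizes chromatin loops. Its consensus is written YTAWTAR, with Y for a pyrimidine, R for a purine and W for either weakly paired base, and this pattern is its own reverse complement, so one strand finds all matches.

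The sequences that carry the largest values beside the gaps are printed first. Several later results are also given apart for sequences with and without another copy in the genome. All are hg19 reference sequence, and capitals mark YTAWTAR. The first lies at chr9:69187753-69187952 (+), in the central 200 bases of the member with the largest fold enrichment. The next 3 come from mutual copies on chromosome 11, at chr11:48994186-48994383 (-), chr11:49834694-49834891 (+) and chr11:55041590-55041789 (+), and show how few letters separate strong members that share their sequence.
Member beside FOXD4L6: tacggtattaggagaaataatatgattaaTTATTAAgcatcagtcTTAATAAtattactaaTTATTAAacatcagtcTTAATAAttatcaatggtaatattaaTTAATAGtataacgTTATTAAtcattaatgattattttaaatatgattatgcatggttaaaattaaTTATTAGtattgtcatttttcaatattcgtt
Member beside TRIM51G: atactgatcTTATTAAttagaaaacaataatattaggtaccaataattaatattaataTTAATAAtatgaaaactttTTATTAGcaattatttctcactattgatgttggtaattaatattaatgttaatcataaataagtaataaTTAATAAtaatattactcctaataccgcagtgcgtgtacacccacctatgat
Member nearest OR4C13: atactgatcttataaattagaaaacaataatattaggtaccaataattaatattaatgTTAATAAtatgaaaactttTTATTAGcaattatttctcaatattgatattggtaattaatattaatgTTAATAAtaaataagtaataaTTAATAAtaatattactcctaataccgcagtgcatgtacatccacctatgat
Member beside TRIM48: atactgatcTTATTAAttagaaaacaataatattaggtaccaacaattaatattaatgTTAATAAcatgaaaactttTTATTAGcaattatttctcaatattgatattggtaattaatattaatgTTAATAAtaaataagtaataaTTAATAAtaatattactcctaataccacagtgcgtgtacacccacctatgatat

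The member with the second-largest fold enrichment, at chr15:20675568-20675767 (+), holds no YTAWTAR in its central 200 bases. Capitals in it mark a string seen after its values were known, CTAATATTAG, which is its own reverse complement and occurs 5 times there. Over 400 bp the string was found in 0.772% of members and in 0.752% of all autosomal peaks.
Member nearest GOLGA6L6: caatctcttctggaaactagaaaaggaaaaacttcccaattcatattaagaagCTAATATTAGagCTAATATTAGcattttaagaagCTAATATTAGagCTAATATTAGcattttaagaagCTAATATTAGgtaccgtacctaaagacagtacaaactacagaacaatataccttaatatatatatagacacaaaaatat

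The following sequences are the strongest member of the largest group of copies, at chr15:20145537-20145736 (+), the strongest of the third-largest group, at chr21:9454313-9454512 (+), and the strongest member with neither another copy nor a repeated word, at chr2:97143280-97143479 (+). They show copied sequences with few matches beside a single-copy sequence with several, and capitals again mark YTAWTAR.
Strongest of the largest copy group: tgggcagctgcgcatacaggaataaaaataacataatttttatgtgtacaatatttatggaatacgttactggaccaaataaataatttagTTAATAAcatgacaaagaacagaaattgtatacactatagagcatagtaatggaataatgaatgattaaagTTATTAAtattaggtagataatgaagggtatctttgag
Strongest of the third copy group: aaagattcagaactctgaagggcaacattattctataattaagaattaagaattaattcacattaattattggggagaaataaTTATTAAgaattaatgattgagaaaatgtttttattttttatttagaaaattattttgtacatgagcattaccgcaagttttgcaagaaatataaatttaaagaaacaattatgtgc
Strongest member with no copy and no repeated word: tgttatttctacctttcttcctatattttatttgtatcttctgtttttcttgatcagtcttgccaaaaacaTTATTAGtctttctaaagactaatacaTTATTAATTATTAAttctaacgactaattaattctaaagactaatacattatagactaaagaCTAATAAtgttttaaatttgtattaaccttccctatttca

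Satb1 peaks were somewhat denser beside the gaps than elsewhere, and the excess was largest in the first Mb. The members lay at 9.11 peaks per Mb of determined bases (8.68 to 9.55), against 8.11 (8.0 to 8.22) in the rest, a ratio of 1.12 (1.07 to 1.18). Density in the first Mb was 11.8 peaks per Mb (10.7 to 13.0, 430 members). It was 9.32 in the second Mb, and in the next 3 it was 7.67, 8.74 and 8.05. Beyond the limit the density was lower than in the rest, at 7.03 per Mb (6.66 to 7.41) from 5 to 10 Mb, where the single Mb bins ran from 6.66 to 7.39. Chromosome ends, the other special place on a chromosome, held 4.2 peaks per Mb (3.91 to 4.50). The A/T content of the reference was 59.0% both within 5 Mb of the gaps and in the rest, but 52.6% at the chromosome ends.

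The number of consensus matches did not follow the density. The flanks held 775 YTAWTAR matches per Mb against 821 in the rest, and the first Mb held 709. Per 100 matches there were 1.17 peaks in the flanks, 0.988 in the rest and 1.67 in the first Mb. The chromosome ends held 519.6 matches per Mb and 0.808 peaks per 100 matches. Of all matches in the flanks, 3.02% (2.93 to 3.11) lay in a full-length peak, against 2.75% (2.73 to 2.77) in the rest. When the autosomes were split into windows of 100 kb and sorted by A/T content into 4 classes, the density ratio was 1.24, 1.26 and 1.27 in the lower 3 classes. In the class richest in A/T it was 1.03, at 15.5 (14.3 to 16.8) against 15 (14.7 to 15.3) peaks per Mb.

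Much of the sequence beside the gaps occurs more than once in the genome. Words of 75 bases, the length of the reads, were sampled every 1000 bases along the reference, and 13.9% of those in the flanks had an exact second place on either strand, against 3.33% in the rest and 22.9% in the first Mb. Reads from such words have no single place. The methods name the default settings of the aligner, under which Bowtie2 gives a read with several equally good places to 1 of them at random, and whether such reads were then filtered is not given in the sources used here. Peaks in which at most 50% of the words were repeated lay at 8.45 per Mb of unrepeated sequence (8.01 to 8.92) beside the gaps and at 8.27 (8.16 to 8.39) in the rest, so that the ratio was 1.02 (0.966 to 1.08). In the first Mb the same ratio was 1.11 (0.978 to 1.26). Both intervals hold 1, and in unrepeated sequence a denser flank was not detectable.

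**Figure D1:**
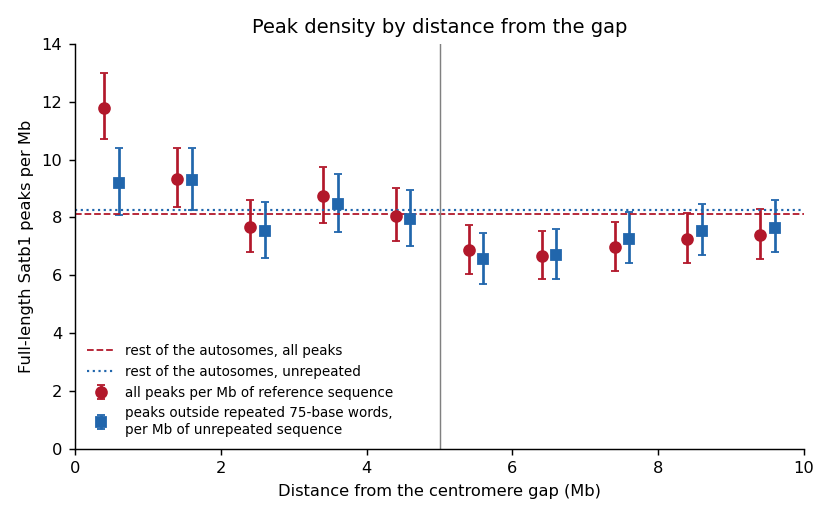
Density of full-length Satb1 peaks (peaks per Mb, vertical axis) in bins of 1 Mb of distance from the gap (horizontal axis). Circles count all peaks per Mb of determined bases, squares count peaks in which at most 50% of the 75-base words are repeated per Mb of unrepeated sequence, bars are 95% Poisson intervals, horizontal lines are the rest of the autosomes, and the vertical line is the 5 Mb limit. In the first bin the circle stands at 11.8 and the square at 9.18, and in the 5 bins beyond the limit the circles stand between 6.66 and 7.39.

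The flanks differed from each other far more than the mean excess. Of 39 flanks, 27 were denser than the rest of their own chromosome, and this held for 16 of 22 chromosomes taken whole. The ratio of a chromosome's flanks to its own rest ran from 0.521 on chromosome 13 to 6.57 on chromosome 21, with a median of 1.2. The flank of chromosome 21 was the densest, with 53.3 peaks per Mb (42.3 to 66.4) from 80 members in only 1.5 Mb of determined bases. The longest N run of this chromosome is its start, so these members lie ahead of the second run, which ends at position 14338129, and not on the long-arm side of it. The long-arm flanks of chromosomes 1 and 9 followed, at 19.8 (15.7 to 24.6) and 18.7 (14.6 to 23.6) peaks per Mb, and the N runs of both hold unsequenced heterochromatin as well as the centromere. In these 3 flanks 98.8%, 82.7% and 98.6% of the members had another copy of their sequence.

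Dense flanks without copies were also found. Both sides of chromosome 3 and the long-arm side of chromosome 6 held 16.4, 16.6 and 16 peaks per Mb, and there 2.44%, 1.2% and 3.8% of the members had another copy. Their sequence was rich in A/T, at 64.4%, 64.1% and 64.3%. The sparsest flanks were the short-arm sides of chromosomes 19 and 17, at 3.23 (1.85 to 5.25) and 3.88 (2.33 to 6.06) peaks per Mb, and the flank of chromosome 22, at 4.0 (2.41 to 6.25). Chromosome 19 as a whole was sparse, with 2.49 peaks per Mb in its rest. The ratio within 5 Mb stayed above 1 without chromosome 21, at 1.08 (1.02 to 1.14), and without chromosome 3, which held the most members (165), at 1.07 (1.02 to 1.13). With peaks of a fold enrichment of at least 5 it was 1.05 (0.995 to 1.11), and with the 2 largest N runs joined where they lie close it was 1.06 (1.0 to 1.11), with lower bounds at or near 1.

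**Figure D2:**
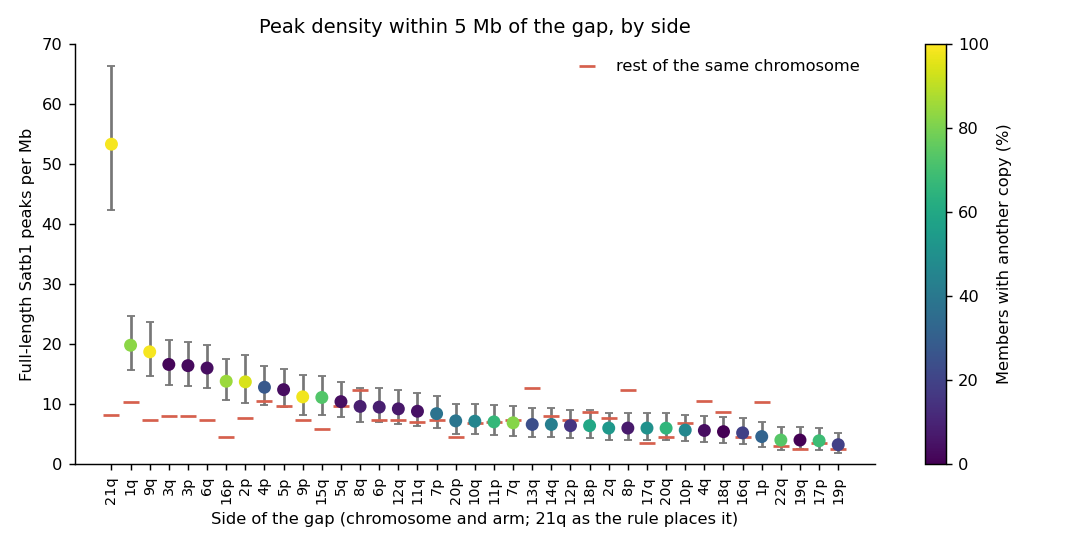
Density of full-length Satb1 peaks (peaks per Mb, vertical axis) in each of the 39 flanks, named by chromosome and arm and ordered by density, with 95% Poisson intervals. Colour gives the share of members that have another copy of their sequence, and dashes give the rest of the same chromosome. The flank of chromosome 21 stands at 53.3, above all others, and the flanks of chromosome 3 reach 16.4 and 16.6 with few copies.

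Fold enrichment, the authors' MACS2 pileup over local background at each peak, was lower beside the gaps than elsewhere. Members had a median of 6.91, between 2.15 and 51.1, against 7.33 in the rest. As a percentile of all autosomal full-length peaks, where 50 is the middle, the median member stood at 45.3 (42.3 to 47.2) and the median peak of the rest at 50.7 (49.8 to 50.7). In the first Mb the median percentile was 34.6 (27.4 to 37.9). The top 10% of peaks held 118 members, which is 7.01% of them (5.83 to 8.33), against 9.98% of all autosomal peaks and 10.2% of the rest. Peak width hardly differed, with medians of 315 and 314 bp.

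Over all members the lower rank moved with sequence copies, but not in every flank. Members with no other copy had a median percentile of 49.0 (47.2 to 52.2, n = 992), close to the 50.7 (49.7 to 50.7) of uncopied peaks in the rest. Members with another copy had a median of 35.4 (30.3 to 40.1, n = 692), whereas copied peaks in the rest stood at 53.7 (50 to 58.0, n = 915). Copied members had the lower median beside the gaps, and copied peaks elsewhere did not. Chromosome by chromosome, the median was lower beside the gap than in the rest on 16 of 22. The flank of chromosome 21 had a median percentile of 8.63 and the long-arm flank of chromosome 1 one of 12.1, while the short-arm flanks of chromosomes 3 and 11 had 48.1 and 56.7. Single flanks did not all follow the copies, since the short-arm flank of chromosome 11 was 66.7% copied, those of chromosomes 2 and 9 were 94.0% and 97.9% copied with medians of 45.9 and 44.3, and the long-arm flank of chromosome 16 was 19.2% copied with a median of 34.4. Whether reads shared among copies lowered the fold enrichment was not tested.

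**Figure D3:**
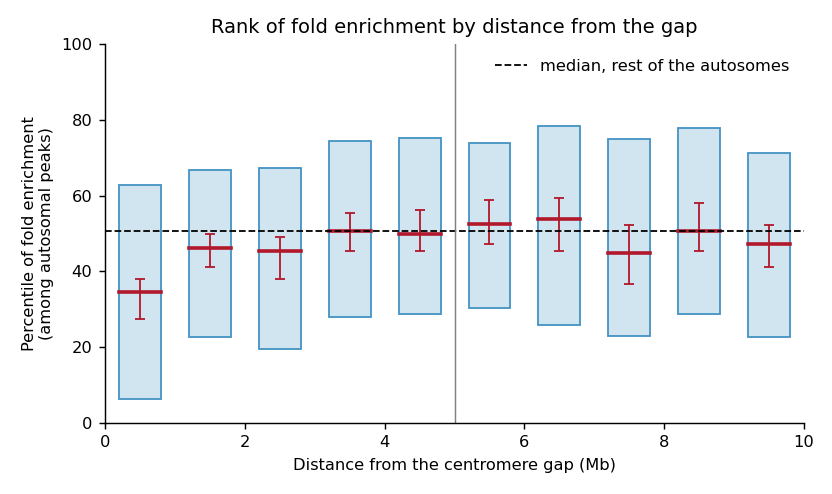
Percentile of fold enrichment among all autosomal full-length peaks (vertical axis) in bins of 1 Mb of distance from the gap (horizontal axis). Boxes span the quartiles of the peaks of a bin, thick lines are medians with 95% intervals, the dashed line is the median of the rest at 50.7, and the vertical line is the 5 Mb limit. The median of the first bin, 34.6, stands below all others.

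A peak was said to have another copy when its central 200 bases aligned elsewhere in the reference at 90% identity or more over at least 90% of their length. This was so for 692 members, or 41.1% (38.7 to 43.5), where 7.32% of all autosomal peaks and 4.52% (4.23 to 4.81) of the rest had a copy. At 95% identity the share was 36.1% (33.8 to 38.5) of members and 5.78% of all autosomal peaks. At 90% it was 79.5% (75.4 to 83.3) in the first Mb and 38.5%, 27.7%, 21.1% and 23.5% in the next ones. It remained at 25.6% from 5 to 6 Mb and was 0.741% from 7 to 8 Mb. More than 50% of the 75-base words were repeated in 339 members, 20.1% (18.2 to 22.1), against 2.83% of all autosomal peaks and 1.39% of the rest. At least 1 repeated word was found in 33.2% (30.9 to 35.5) of members and in 5.55% of all autosomal peaks. The share of copied peaks was higher beside the gap than elsewhere on 19 of 22 chromosomes.

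The copies of members lay mostly beside gaps too. Of the 692 copied members, 87.3% (84.6 to 89.7) had a copy within 5 Mb of a gap and 68.6% (65.0 to 72.1) had one on their own chromosome. Most of them, 476, had 1 to 9 copies, 213 had 10 to 99, and 3 had 100 or more. A copy was itself in an autosomal full-length peak for 76.3% (73.0 to 79.4) of the copied members. Seen from the copies, the 476 members with few copies had 1843 of them. Of these, 1059 lay beside a gap and 498 elsewhere on the autosomes. The others lay off the autosomes, where no peaks were searched. The share of all 1843 in a full-length peak, 45.6% (43.3 to 47.9), is therefore a lower bound. The share was 55.6% (52.6 to 58.6) for copies beside a gap and 50.6% (46.1 to 55.1) for copies elsewhere on the autosomes.

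Ranks were compared between copies that were both peaks. Among 568 such pairs the median identity was 98%, the median difference in fold enrichment was 12.2 percentile points, and 63.6% differed by under 20 points. It was 8.88 points in the 285 pairs with an identity of 98% or more and 20 points in the 99 pairs under 95%. Near-identical copies can share reads, so their values are not independent. Members that aligned to each other formed 132 groups with 478 members. The largest group held 19 members on 8 chromosomes, with fold enrichments from 4.30 to 9.11. All 19 were in every other Satb1 list, as were 70.9% of all autosomal peaks. The strongest member of this group, at chr15:20145321-20145953, had a fold enrichment of 9.11, and its sequence with 2 consensus matches is printed above. The second group held 18 members on 7 chromosomes, from 4.97 to 17.9. Its strongest member, chr18:15172970-15173346, lay 445 kb from the start of ANKRD30B, an ankyrin repeat gene. The third group held 16 members, from 4.95 to 22.4, the strongest of which was chr21:9454036-9454790 in the flank of chromosome 21.

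Of the 5 strongest members 4 had another copy, although of the 118 members in the top 10% by fold enrichment 98 had none and 20 had at least 1. For comparison, 41.1% of all members and 7.32% of all autosomal peaks had another copy. In the rest, 156 of the 2072 peaks in the top 10% had one. The largest fold enrichment, 51.1, was that of chr9:69187203-69188502, an intergenic peak 14.3 kb from the start of FOXD4L6, a forkhead gene copied several times on chromosome 9. It held 10 consensus matches in 400 bp and had fold enrichments of 40.1 with dHD, 60.9 with N-C1, 67.8 after camptothecin and 72.8 after ICRF-193, so it was among the top percent of peaks in every list. The peak had 5 other copies at identities from 92.3% to 100%, all 5 of which were full-length peaks, with fold enrichments from 37.9 to 59.0. The identical copy, 5.46 Mb from the gap and so just past the limit, had the largest of these. Another of them, chr9:69182875-69184193, was the member with the most consensus matches, 12, and had a fold enrichment of 37.9.

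The second-strongest member was chr15:20675267-20676069, with a fold enrichment of 48.6 and 41.1, 76.8, 44.6 and 53.2 with dHD, N-C1, camptothecin and ICRF-193. It lay 71.5 kb from the start of GOLGA6L6, a golgin family gene, and held 1 consensus match in 400 bp. It had no copy over the length required, yet all of its 75-base words occurred elsewhere. Members 3 to 5 by fold enrichment were the chromosome 11 sequences printed above, chr11:48993800-48994740, chr11:49834277-49835271 and chr11:55041196-55042184, with 47.6, 47.2 and 46.9. They lie on both sides of the gap, nearest to TRIM51G, OR4C13 and TRIM48, genes of the TRIM and olfactory receptor families. Each had 4 copies, namely the other 2 and a pair of peaks on the long arm. These lay 34.9 and 35.0 Mb from the gap and had fold enrichments of 50.9 and 31.6 in that order.

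The chromosome 11 members also shared a pattern over the lists. With dHD they had fold enrichments of 10.3, 7.66 and 6.51, which were at percentiles 80.4, 64.4 and 50.6 of that list. In the N-C1, camptothecin and ICRF-193 lists the same peaks stood at percentiles from 98.8 to 99.6. The 2 strongest members, on chromosomes 9 and 15, stood at 99.8 in the dHD list. The strongest members with neither a copy nor a repeated word, chosen after their values were seen, varied in the same way. The peak at chr2:97142997-97143762, 30.4 kb from the start of NEURL3, a ubiquitin ligase gene, had a fold enrichment of 45.8 and stood at percentile 99.5 with dHD. The peak at chr4:45711619-45712246, 414 kb from the start of GABRG1, had 40.9 and stood at 47.9 with dHD.

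The members nearest to a gap were weak. The peak at chr20:29420294-29420584 began the sequence after the gap, 870 bp from its edge, and had a fold enrichment of 5.41. The peak at chr21:9414704-9415083 lay 3701 bp from the edge and had 4.59. The first had 4 copies and the second 5, and none of these copies was in a full-length peak. At the 5 Mb limit, the nearest members inside were a peak with a fold enrichment of 29.5 in an intron of HTRA4, one with 6.64 in an intron of PLCXD3 and one with 8.70 in an intron of YIPF7. The nearest peaks outside had 5.90 and 6.64, both in an intron of SUZ12, and 11.2 in intergenic sequence of chromosome 21. The last of these lies just past the second N run of chromosome 21, on its long-arm side.

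Signs of alpha satellite were more frequent in the flanks than in the rest and were not found under the members. Windows of 1200 bp were scored for similarity to themselves at a shift of one alpha satellite unit, give or take a few bases. With an identity of at least 50%, 2.34% of sampled windows within 5 Mb and 9.06% within 1 Mb were periodic, against 0.0280% in the rest. The CENP-B box, searched by its conserved bases on both strands, occurred 1065 times in the flanks, or 5.76 times per Mb. It reached 23.9 per Mb within 1 Mb of a gap and was at 0.297 per Mb in the rest. No member was periodic, 0 of 1684, and 0 members held a box. An upper limit for a share of 0, taken as 3 counts in 1684 and not from the exact interval, is 0.178%. In the rest 2 peaks were periodic and 2 held a box. Whether reads without a single place kept peaks out of satellite sequence was not tested. A tandem pair of the unit GGAAT, the pattern of satellites II and III, was in 1 member and in 15 peaks of the rest, counted over 400 bp on both strands.

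The sequence under the members was as rich in A/T as elsewhere and held slightly fewer consensus matches. The A/T content of the central 200 bases was 72.4% ± 5.43 (SD, n = 1684) in members and 72.4% ± 5.48 (n = 20265) in the rest. Members held 2.5 ± 1.41 (SD) YTAWTAR matches per 400 bp and the rest 2.77 ± 1.58, and in the first Mb the mean was 2.10 ± 1.35. At least 1 match was present in 94.7% (93.5 to 95.7) of members, against 96.7% of all autosomal peaks and 96.9% of the rest. The count was 5 or more in 6.95% (5.78 to 8.27), against 9.31% of all autosomal peaks. Members with no other copy had 2.75 ± 1.39 matches, which is near the 2.76 ± 1.51 of uncopied peaks in the rest, and copied members had 2.14 ± 1.37. As with rank, copied peaks of the rest went the other way, with 2.98 ± 2.56.

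Members lay outside genes more often than other peaks, and this too was the case for copied members. Against protein-coding genes, 72.6% of members (70.4 to 74.7) were intergenic, where 60.9% of all autosomal peaks and 59.9% (59.2 to 60.6) of the rest were. In the first Mb the share was 92.3% (89.4 to 94.7). It was 58.3% (55.1 to 61.4) in members with no other copy, against 59.3% (58.6 to 60.0) for uncopied peaks in the rest, and 93.1% (90.9 to 94.8) in copied members. Against transcripts of every type 48.7% (46.3 to 51.1) were intergenic, beside 39.8% of all autosomal peaks. Introns held 435 members, 25.8%, against 37.6% of all autosomal peaks. Exons held 16 members and promoters 11, which are 0.95% and 0.653%, beside 1.05% and 0.538% of all autosomal peaks. The median distance to a protein-coding start was 144 kb in members and 152 kb in the rest, and 419.5 kb in the first Mb. The first Mb was itself poor in genes, with 3.55 protein-coding starts per Mb, against 7.08 in all flanks and 7.17 in the rest.

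The genes that held the most members were long genes. Of 1319 protein-coding genes that reach into the flanks, 242 (18.3%) held a member in their body and 631 (47.8%) had one in the body or within 50 kb. EYS, which encodes a matrix protein of photoreceptors and spans chr6:64429876-66417119 (-), held 40 members over its 1987 kb. Their fold enrichments lay between 4.17 and 27.1 with a median of 7.94, none was in an exon, and 29 were in all 4 other Satb1 lists. Another copy was found for 1 of them. Of all autosomal peaks 1.05% were in exons, 70.9% were in all 4 other lists and 7.32% had another copy. EPHA6, an ephrin receptor on chromosome 3, held 21 members, and EPHA3, a second ephrin receptor on that chromosome, held 9 with a maximum of 31.8. SNTG1, a syntrophin of chromosome 8, held 16, and CADM2, a synaptic adhesion molecule, held 12 in the 619 kb that lie inside the limit, of 28 full-length peaks over its whole body.

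Per length the genes with the most members differed. The number of members per 100 kb was 2.01 in EYS, 2.22 in EPHA6, 1.80 in SNTG1, 1.94 in the inner stretch of CADM2 and 2.40 in EPHA3. KHDRBS2, an RNA-binding protein gene 0.510 Mb from the gap of chromosome 6, held 9 members at 1.48 per 100 kb, with a median fold enrichment of 10.5. CNTN1, a contactin of neurons, held 8. An unnamed gene model on chromosome 4, ENSG00000282278, held 7 at 0.763 per 100 kb and overlaps other genes. GHR, the growth hormone receptor gene, and PRIM2, the gene of a primase subunit, held 6 each. BMP5, a bone morphogenetic protein gene, held 5 over only 122 kb, or 4.10 per 100 kb, the highest of these genes. Of the members in these genes, the one in EYS was the only one with another copy.

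Multicopy families of the flanks were counted by symbol, with 18.3% and 47.8% of all flank genes as the background for the body and the 50 kb margin. Of 90 zinc finger genes, 10 held a member in the body and 36 within 50 kb, or 11.1% and 40%, with a median gene length of 34.3 kb against 23.7 kb for all flank genes. Ankyrin repeat genes, at a median length of 53.5 kb, held members in 8 of 14 bodies. Among them were ANKRD36 and ANKRD36C on chromosome 2, with 5 members each, all of which had another copy. Their fold enrichments lay between 4.31 and 10.5 and between 5.13 and 9.93. The POTE genes, a primate family whose proteins carry ankyrin repeats, held a member in 2 of 8 bodies. Both TPTE genes, which encode membrane phosphatases and have a median length of 112 kb, held members, 4 of them in TPTE on chromosome 21 and 1 in TPTE2. The shares of families were not corrected for gene length.

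All 4 FOXD4-like genes of the flanks had a member within 50 kb and none in the body, which at a median of 3.11 kb is short. FOXD4L6 had 4, FOXD4L2 had 3, and FOXD4L4 and FOXD4L5 had 2 each. CNTNAP3B and CNTNAP3C, overlapping gene models of a contactin-associated family, held 2 members and 1 over 239 and 137 kb. CNTNAP3C lies inside CNTNAP3B, so its member is also among those 2. The 129 olfactory receptor genes are also short, at a median of 1.08 kb, and 4 held a member in the body while 89 (69.0%) had one within 50 kb. These genes stand in clusters, so that neighbouring genes share the same members. Of 5 glutamate or GABA receptor genes 4 held a member, all GABA receptor subunits of chromosome 4. The median length of the 5 genes was 88.3 kb, against 23.7 kb for all flank genes. GABRB1 held 3 members, GABRA2 held 2, and GABRG1 and GABRA4 held 1 each, all 7 of which had no other copy and were in all 4 other lists. Of all autosomal peaks 7.32% had another copy and 70.9% were in all 4 other lists. Golgin, NBPF and SPATA31 genes had a member within 50 kb in 2 of 7, 2 of 5 and 1 of 2, and no FRG gene was within the limit.

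Members overlapped ATAC-seq peaks more often than other Satb1 sites did, and this was again seen in copied members. In native cells 104 members, 6.18% (5.07 to 7.43), shared at least 1 bp with an ATAC-seq peak, against 3.47% of all autosomal peaks and 3.24% (3.0 to 3.50) of the rest. In Satb1-expressing cells it was 157 members, 9.32% (7.98 to 10.8), against 4.71% and 4.32% (4.05 to 4.61). In the first Mb the shares were 10.9% and 20.5%. Peaks near chromosome ends had shares of 6.44% and 9.41%, about those of the members. Chromosome by chromosome, the share in Satb1-expressing cells was higher beside the gap than in the rest on 11 of 22. ATAC-seq peaks covered 5.96% of the bases of the flanks in native cells and 9.04% in Satb1-expressing cells, against 5.98% and 9.36% of the rest. In the first Mb they covered 6.56% and 10.5%.

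Members with no other copy had shares of 3.33% (2.30 to 4.64) and 3.43% (2.39 to 4.76), beside 3.09% and 3.94% for uncopied peaks in the rest. For copied members the shares were 10.3% (8.10 to 12.8) and 17.8% (15 to 20.8), and for copied peaks of the rest 6.45% and 12.5%. Of the 157 members in an ATAC-seq peak of Satb1-expressing cells, 78.3% (71.1 to 84.5) had another copy, 88 lay within 1 Mb of a gap, 34 lay in the long-arm flank of chromosome 1 and 23 in the flank of chromosome 21. Their median percentile of fold enrichment was 12.1, and none was in a promoter. ATAC-seq peaks of Satb1-expressing cells covered 34.2% of the bases in the long-arm flank of chromosome 1, where 34 of 81 members overlapped one. They covered 42.5% of the bases in the flank of chromosome 21, where 23 of 80 members did. Without the long-arm flanks of chromosomes 1, 9 and 16, a choice made after seeing the data, the share in Satb1-expressing cells was 7.18% (5.92 to 8.60). Both assays rest on aligned reads, and whether these overlaps come from reads placed in repeated sequence was not tested.

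**Figure D4:**
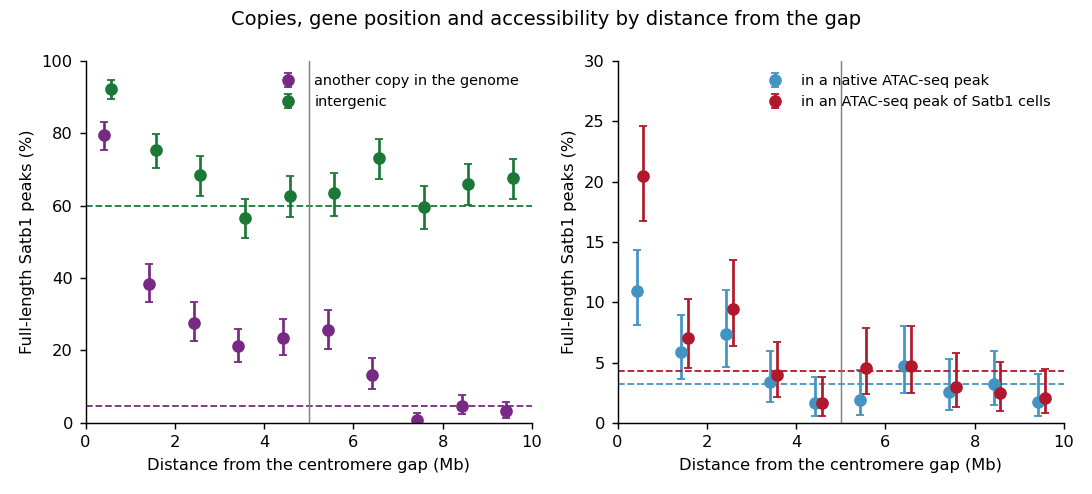
Share of full-length Satb1 peaks (percent, vertical axes) in bins of 1 Mb of distance from the gap (horizontal axes), for another copy and intergenic position in the left panel and for overlap with ATAC-seq peaks in the right panel. Bars are 95% Clopper-Pearson intervals, dashed lines are the rest of the autosomes, and the vertical lines are the 5 Mb limit. All 4 shares are highest in the first bin, at 79.5%, 92.3%, 10.9% and 20.5%.

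In the other Satb1 lists, members were found about as often as other sites. With at least 1 bp shared, 87.4% (85.7 to 88.9) of members were in the dHD list, where 88.6% of all autosomal peaks and 88.7% of the rest were. For N-C1 it was 94.2% (93 to 95.3), against 95.2% and 95.3%. After camptothecin it was 82.6% (80.7 to 84.4), against 81.7% and 81.6%, and after ICRF-193 92.8% (91.5 to 94.0), against 93% and 93%. The interval of the members holds the value of the rest for all lists but N-C1, where it ends at it. All 4 other lists held 69.5% (67.3 to 71.7) of members, against 70.9% of all autosomal peaks. Copied and uncopied members did not differ here, with 69.7% and 69.5% in all 4.

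Members also ranked lower than the rest inside the other lists. The median percentile of the overlapping peak, in its own list, was 75.8 for members and 78.7 for the rest with dHD, and 79.7 and 82.5 with N-C1. After camptothecin it was 57.0 and 62.3, and after ICRF-193 67.5 and 71.2. In the same order of lists, uncopied members stood at 78.7, 82.0, 60.8 and 71.2. Uncopied peaks of the rest stood at 78.7, 82.5, 62.3 and 71.2. Copied members stood at 69.8, 74.9, 49.7 and 61.6, and copied peaks of the rest at 79.2, 83.6, 65.4 and 72.2. There were 3 members in no other Satb1 list, beside 0.114% of all autosomal peaks, and they were looked up after their values were seen. They were chr16:32147691-32147918 with a fold enrichment of 4.37 and 20 copies, chr16:46908769-46909002 with 5.46, and chr7:55115681-55115919 with 5.76. The last lies in an intron of EGFR, the epidermal growth factor receptor gene, and was in both ATAC-seq lists.

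The excess in the first Mb, with repeated sequence included, was not limited to the full-length list. All 5 Satb1 lists were denser there than in the rest of the autosomes, with ratios of 1.46 (1.32 to 1.61) for full-length Satb1, 1.28 (1.19 to 1.37) for dHD and 1.35 (1.27 to 1.43) for N-C1. After camptothecin the ratio was 1.68 (1.54 to 1.83) and after ICRF-193 it was 1.46 (1.35 to 1.57). In unrepeated sequence of the first Mb the full-length ratio was 1.11 (0.978 to 1.26). Such a ratio was not computed for the other lists, so they do not show an excess apart from repeated sequence. Within the whole 5 Mb the ratios were 1.12 (1.07 to 1.18), 1.03 (0.997 to 1.07), 1.05 (1.01 to 1.08), 1.2 (1.14 to 1.26) and 1.12 (1.08 to 1.17) in the same order. The number of ATAC-seq peaks per Mb went the other way, with ratios within 5 Mb of 0.895 (0.878 to 0.913) in native and 0.882 (0.866 to 0.898) in Satb1-expressing cells. The share of bases under these peaks was close to the rest, at 5.96% and 9.04% against 5.98% and 9.36%. In the first Mb that share was 6.56% and 10.5%, so fewer ATAC-seq peaks per Mb did not mean fewer covered bases. At the chromosome ends the Satb1 lists had ratios from 0.421 to 0.518 and the ATAC-seq lists 1.38 and 1.46. The lists differ in length and may differ in depth, and a ratio inside one list does not measure binding against another.

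**Figure D5:**
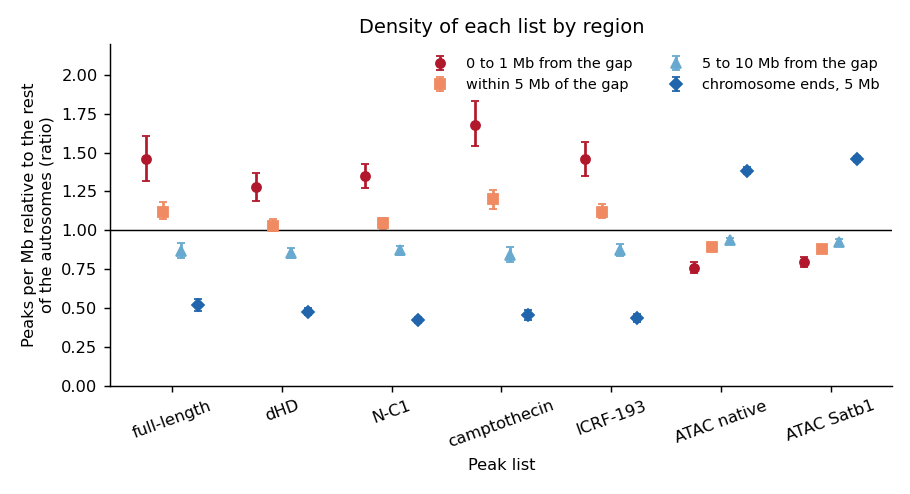
Ratio of peak density in a region to the rest of the autosomes (vertical axis), for the 5 Satb1 lists and the 2 ATAC-seq lists (horizontal axis) and 4 regions marked by shape and colour, with 95% intervals. In the first Mb the Satb1 lists stand between 1.28 and 1.68 and the ATAC-seq lists at 0.758 and 0.797.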

How the data were processed

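The series holds 20 samples, of which 5 ChIP-seq and 2 ATAC-seq peak lists from MCF10A were used. Per the labels and methods, the authors trimmed 75-base reads with cutadapt, aligned them to hg19 with Bowtie2 at default settings and used MACS2 to call ChIP-seq peaks over input DNA and broad ATAC-seq peaks. Depth per list, any filter on reads with several places and pooling are not given in the sources used here. The deposited values used were fold enrichment, which is the authors' ratio of pileup to local background, and −log10 q, both from MACS2. 

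Gaps, copies and words came from the GRCh37 primary assembly, genes from GENCODE lifted to that build. The rest means autosomal peaks that are not members. Copies were sought with BLAST, for 200 central bases at 90% identity over 90% of the length. A promoter reached from 1000 bp before to 100 bp after a protein-coding start. No test was run, since each condition had 1 list. Members and lists of genes and sequences were chosen with earlier results of these data known. Named peaks were the 5 with the largest fold enrichment, the 2 with the most matches, the 2 nearest to a gap and the strongest of the 3 largest copy groups. Named genes were the 12 with the most members in the body, with ties broken by total fold enrichment, the host or nearest gene of each named peak, and the families counted by symbol. One gene that this rule names is not reported here. Functions were checked on simulated data, with 0 differences from bedtools over 3000 intervals, 0 of 663 planted motifs missed or added and 0 of 3000 distances wrong. Alternatives covered the distance limit, peak and ATAC-seq thresholds, overlap, identity, windows, consensus, gene models, gaps and left-out copies or chromosomes. Tools were Python 3.11.15, numpy 2.4.6, pandas 2.3.3, scipy 1.17.1, BLAST 2.17.0, bedtools 2.31.1, samtools 1.23.1, pysam 0.24.0 and matplotlib 3.10.9.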

Additional observations from a re-analysis of the deposited data

How the results depend on the processing

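Of 86 alternatives, 46 left the value within its counting interval, 39 moved it and 1 turned its direction. That one was the density ratio with copied peaks left out, 0.693, in which the bases that hold copies still counted. With a limit of 2 Mb the density ratio was 1.30, the rank 38.9, copies 61.4%, intergenic members 84.8%, members in native and Satb1 ATAC-seq peaks 8.70% and 14.5%, motifs 2.31 and A/T content 72.1%. With 3 Mb the ratio was 1.18 and the rank 40.1. With the 2 largest N runs joined the ratio was 1.06. A fold enrichment of at least 5 gave a ratio of 1.05 and copies of 35.5%, and in both lists 84.8% for dHD, 92.9% for N-C1, 78.0% for camptothecin and 90.6% for ICRF-193. A reciprocal overlap of 50% gave 71.7%, 86.7%, 78.9% and 85.2%. Without copied members the rank was 49.0, intergenic members 58.3%, ATAC-seq shares 3.33% and 3.43%, motifs 2.75 and A/T content 72.8%. Copies were 36.1% at an identity of 95% and 45.4% without chromosome 3. Without the long-arm flanks of chromosomes 1, 9 and 16, chosen after seeing the data as were chromosome 21 and part of the joined runs, copies were 36.5% and the Satb1 ATAC-seq share 7.18%. Transcripts of every type left 48.7% intergenic. With 50% of the Satb1 peak covered the ATAC-seq shares were 3.98% and 6.95%, and with an ATAC-seq −log10 q of at least 5 they were 2.97% and 6.65%. A window of 150 bp held 1.71 motifs, CTAATAR 0.931 per 400 bp, and 100 bases had an A/T content of 74.1%. The cause of these shifts was not tested. No paired analysis was possible because each condition has 1 list. The depth of each list is not given, and a site that a list lacks may lie under its threshold.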
